A study of Homo sapiens with 32 samples.

Results

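The genes described here are the human ubiquitin-conjugating enzymes, ubiquitin ligases, ligase adaptors and deubiquitinases named by family: RNF, TRIM, FBXO, FBXW, FBXL, KLHL, CUL, UBE2, UBE3, UBE4, UBR, HECTD, HERC, USP and OTUD followed by a number or letter. They were chosen by symbol, antisense genes were dropped and 2 further symbols were left out by rule, and the symbol rule uses no measured value, although the families were picked for description with earlier results of these data known. Of the 7978 genes in the count table, 198 were members, and they carried 599 of the 26104 merged m6A peaks. By family these were 43 RNF, 34 USP, 32 TRIM, 21 UBE2, 19 KLHL, 16 FBXO, 8 FBXL, 5 OTUD, 4 CUL, 4 FBXW, 4 HERC, 3 UBE3, 2 HECTD, 2 UBE4 and 1 UBR gene. The USP family includes 1 Y-linked gene, which is counted but whose levels are not given. The pseudogenes HERC2P2, HERC2P9 and RNF216P1 matched the symbol rule and are counted among the members.

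Ubiquitin is a small protein that is attached to other proteins through an enzyme cascade. An activating enzyme (E1) passes it to a conjugating enzyme (E2), and a ligase (E3) brings the charged E2 or the ubiquitin itself to the substrate, which is often then degraded by the proteasome. RING ligases such as the RNF and TRIM proteins bridge E2 and substrate, HECT ligases carry the ubiquitin on their own cysteine, and cullins are scaffolds that pair a RING subunit with exchangeable F-box or Kelch-type adaptors. Deubiquitinases of the USP and OTUD families take the ubiquitin off again.

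The samples were the human embryonic stem cell (hESC) lines H1 and MEL1, both established lines, taken undifferentiated (S0) or differentiated in culture to posterior foregut (S3), pancreatic progenitors (S4) or immature β-like cells (S6). The labels give no other treatment than the differentiation protocol that the S3, S4 and S6 cultures shared. N6-methyladenosine (m6A) was mapped by MeRIP-seq, in which fragmented mRNA is sequenced once directly (input) and once after pull-down with an m6A antibody (IP). There were 2 replicates of each line at each stage, each with both libraries, hence 16 RNA preparations and 32 libraries, or 4 input and 4 IP libraries per stage.

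Input libraries held 2652830 to 6879256 counts and IP libraries 2378881 to 15674899, with the MEL1 S4 IP libraries the shallowest. Members took 0.731% to 1.25% of the input counts and 1.84% to 2.38% of the IP counts of a library. The labelled stages were checked with marker genes: 7 of 8 undifferentiated-cell markers were called lower at S3, 6 of 6 posterior foregut markers were called higher at S3, 4 of 4 pancreatic progenitor markers (3 of 4 already at S3) and 3 of 4 endocrine markers (CHGA, GLIS3 and INS-IGF2) were called higher at S6, each against S0. From S3 to S4, 0 of the 4 progenitor markers were called and their summed level had a median of 61.1 CPM at S3 and 59 CPM at S4, so these markers do not set S4 apart from S3. The lines differed in 4 hepatic markers (AFP, VTN, APOA1 and APOB), whose summed level at S4 averaged 173 CPM (the count scaled to the library's total after TMM adjustment) in H1 and 64147 CPM in MEL1, and at S3 447 and 30525 CPM. They also differed at S3 in the summed level of 2 neural markers (NES and SOX1), at 2484 CPM in H1 and 39.8 CPM in MEL1, and of the endocrine markers, at 1901 and 410 CPM, and at S4 in that of 4 mesenchymal markers, at 78.3 and 754 CPM. All 9 proliferation markers with counts were called lower at S3 than at S0. The study describes the 2 replicates of a line and stage as biological replicates, while the labels only number them, and p-values measure the spread between these samples of 2 lines.

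The table counts reads in merged peaks only. The input level of a gene is therefore the sum over its merged peaks, given in CPM, and covers parts of a transcript rather than its whole length. The TMM adjustment multiplied the totals of the input libraries by 0.707 to 1.38, lowest for MEL1 at S0 and highest for H1 at S4, so levels differ by these factors from the count over the plain total. Levels were compared only between samples of the same gene. A gene was called when its Benjamini-Hochberg adjusted p over all 7973 genes tested was under 0.1 and it changed at least 2-fold, by edgeR's quasi-likelihood test. Changes are given as log2 fold change ± standard error (SE).

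The promoters of 4 members whose input level changed in the same direction at S3 and at S6 are printed, so that the start regions of genes that fell and of genes that rose can be set side by side: USP28 and UBE2G1, which fell, and TRIM17 and TRIM38, which rose. Among members called in the same direction at both stages, at 1 CPM or more, with the same direction in 4 of 4 same-numbered pairs and with a promoter entry, they had the 2 largest falls and the 2 largest rises at S3. Each run is the 250 bases before the RefSeq start of the gene on GRCh38.p14, read 5′ to 3′ on the gene's strand. Capitals mark any match on either strand to the GC box GGGCGG, the CCAAT box, the TATA box (spelled TATAAA), the letters TTTGAA found in TCF and LEF sites, or the E-box (spelled CACGTG), with no overlap rule between motifs. A match on the other strand reads as the reverse complement, CCGCCC in the case of a GC box and ATTGG in that of CCAAT. USP28 lies on the minus strand at chr11:113875573-113875822, UBE2G1 on the minus strand at chr17:4366676-4366925, TRIM17 on the minus strand at chr1:228416862-228417111 and TRIM38 on the plus strand at chr6:25962552-25962801.
USP28: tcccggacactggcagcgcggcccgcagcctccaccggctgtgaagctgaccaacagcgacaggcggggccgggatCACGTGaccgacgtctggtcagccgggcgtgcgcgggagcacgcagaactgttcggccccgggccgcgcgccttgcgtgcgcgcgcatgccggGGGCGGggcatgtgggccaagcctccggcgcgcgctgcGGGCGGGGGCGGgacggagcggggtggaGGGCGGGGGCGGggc
UBE2G1: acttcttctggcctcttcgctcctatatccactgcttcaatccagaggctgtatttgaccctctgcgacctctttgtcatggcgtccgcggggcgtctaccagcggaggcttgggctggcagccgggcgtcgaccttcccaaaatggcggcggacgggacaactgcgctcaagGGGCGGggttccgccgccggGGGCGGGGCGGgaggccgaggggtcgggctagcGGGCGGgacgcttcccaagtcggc
TRIM17: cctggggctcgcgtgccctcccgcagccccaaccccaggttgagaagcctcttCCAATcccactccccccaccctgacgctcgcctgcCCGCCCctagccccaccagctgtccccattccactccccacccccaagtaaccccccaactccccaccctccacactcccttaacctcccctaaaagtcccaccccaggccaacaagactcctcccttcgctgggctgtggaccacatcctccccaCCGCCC
TRIM38: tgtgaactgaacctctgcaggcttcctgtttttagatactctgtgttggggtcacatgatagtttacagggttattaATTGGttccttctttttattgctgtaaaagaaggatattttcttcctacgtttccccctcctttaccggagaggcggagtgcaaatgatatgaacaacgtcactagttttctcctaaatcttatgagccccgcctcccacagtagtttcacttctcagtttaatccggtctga

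The USP28 window held 5 GC boxes and 1 E-box, with 78.4% of its bases G or C, and the UBE2G1 window held 4 GC boxes at 67.6%. The TRIM17 window held 2 GC boxes on the other strand and 1 CCAAT at 67.2%, and the TRIM38 window, at 42.4%, held 1 CCAAT on the other strand and no GC box. Of the 198 members, 161 had a promoter entry. A GC box stood in 71.4% of these, against 70.5% of the genes with counts and 42.3% of all RefSeq promoters of this length. Among members called in the same direction at S3 and S6, it stood in 7 of 9 promoters that fell and 6 of 10 that rose. CCAAT stood in 3 of the 9 and 4 of the 10, and these groups were not compared by a test. CCAAT stood in 33.5% of member promoters and 36.0% of those of genes with counts, TATAAA in 4.35% and 4.88%, TTTGAA in 8.07% and 8.02%, and CACGTG in 6.83% and 9.57%. A match is a run of letters and not a shown binding site. USP9X, whose fall is described with the deubiquitinases, had no promoter entry.

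Between undifferentiated cells and posterior foregut, 36 members were called, 19 higher and 17 lower at S3. That is 18.2% of 198, while 28.8% of all genes tested were called (15.0% higher and 13.8% lower). At S6 against S0 46 members were called, 28 higher and 18 lower, or 23.2% against 31.4% of all genes (17.5% higher and 13.8% lower). The median member stood at 0.03 log2 at S3 and -0.03 at S6 against S0, and the median gene at -0.02 and 0.03. These 2 comparisons share the S0 libraries. The calls per enzyme class given below were not tested against the shares of all genes called, 28.8% at S3 and 31.4% at S6. In RNA of whole cultures, fewer cells of one type and less RNA per cell cannot be told apart.

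**Figure D1:**
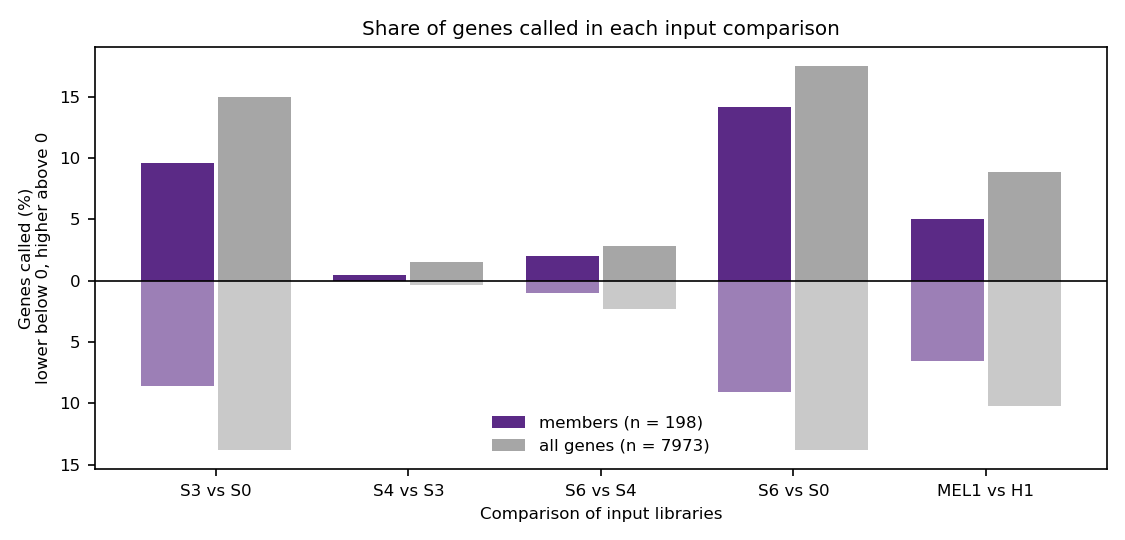
Percent of members (198) and of all genes tested (7973) called higher (above 0) or lower (below 0) in each input comparison, members in purple and all genes in grey. In the 2 comparisons with S0 the member bars, at 9.60% higher and 8.59% lower for S3, are shorter than the bars for all genes at 15.0% and 13.8%.

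Of the 21 E2 enzymes, 3 were called at S3 (1 higher, 2 lower) and 4 at S6 (1 higher, 3 lower). UBE2G1, an E2 that builds lysine-48-type chains for degradation, fell at S3 by 1.78 ± 0.24 on the log2 scale (adjusted p = 3.33e-05) and stayed low at S6 (fell by 1.56 ± 0.23, adjusted p = 9.28e-05). Its S0 levels were 183 and 177 CPM in H1 and 366 and 297 CPM in MEL1. At S3 they were 75.9 and 87.1 CPM in H1 and 69.8 and 60.0 CPM in MEL1, and at S6 79.9, 90.4, 95.6 and 78.7 CPM. The S0 libraries lay above all S3 and S6 libraries, without overlap.

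UBE2L6, the E2 that also carries the ubiquitin-like protein ISG15, dipped at S3 and was back near its starting level at S6. H1 held 51.9 and 48.9 CPM at S0, 25.6 and 33.8 at S3, 18.5 and 23.7 at S4 and 50.3 and 48.5 at S6. MEL1 held 30.2 and 27.4 CPM at S0, 1.0 and 1.81 at S3, 6.30 and 8.11 at S4 and 37.0 and 19.0 at S6. The fall at S3 was 1.90 ± 0.52 on the log2 scale (adjusted p = 0.00927) and the rise from S4 to S6 was 1.62 ± 0.52 (adjusted p = 0.0818), while S6 against S0 was -0.05 (adjusted p = 0.941). UBE2L6 was lower in MEL1 at every stage, and its S0 and S3 libraries were apart within each line but overlapped across lines. The S6 against S4 call was lost in 10 of 20 fits that each left out samples.

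UBE2C, the E2 of the anaphase-promoting complex, just missed the 2-fold threshold at S3, with a log2 change of -1.0 ± 0.33 (adjusted p = 0.0261). Its levels were 172, 227, 46.1 and 64.6 CPM at S0 and 110, 82.4, 12.5 and 45.1 CPM at S3, in the order H1 then MEL1, so that the stages overlapped across lines. FBXO5 (EMI1), an F-box protein that inhibits that complex, fell at S3 (by 1.11 ± 0.26, adjusted p = 0.00296) and at S6 (by 1.10 ± 0.26, adjusted p = 0.00283). Its S0 levels of 71.3, 70.7, 69.5 and 46.6 CPM compared with 43.9, 46.6, 21.3 and 18.7 CPM at S3. The highest S3 library, from H1, and the lowest S0 library both rounded to 46.6 CPM. The call was lost in H1 alone. The proliferation markers fell alongside, from summed levels of 2696 to 3187 CPM at S0 to 541 to 1607 CPM at S3, and their part in the UBE2C and FBXO5 values was not tested.

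Of the 4 cullins with counts, 0 were called at S3 and only CUL7 was called at S6. CUL7, the scaffold mutated in a growth-restriction syndrome, rose by 1.31 ± 0.33 (adjusted p = 0.00527) at S6 against S0. H1 held 137 and 129 CPM at S0 and 205 and 211 at S6, and MEL1 held 45.2 and 57.7 CPM at S0 and 279 and 234 at S6. All S6 libraries lay above all S0 libraries. CUL1, the scaffold of the F-box ligases, stood at 127, 130, 92.5 and 87.9 CPM at S0 and at 79, 75.6, 75.8 and 78.3 CPM at S6, a log2 change of -0.47 ± 0.16 that passed the adjusted p (0.0266) but not 2-fold. CUL4A changed by -0.63 and -0.53 at S3 and S6, and CUL5, which pairs with SOCS-box adaptors, by -0.69 and -0.92, none of them called.

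The 47 adaptors (F-box and Kelch-type) gave 7 calls at S3, 4 of them higher, and 8 calls at S6, 7 of them higher. FBXO16 rose at S6 against S0 by 2.22 ± 0.40 on the log2 scale (4.67-fold, adjusted p = 0.000441). Its S0 levels were 19.3 and 15.0 CPM in H1 and 11.5 and 16.5 CPM in MEL1, and at S6 they were 44.2 and 41.2 CPM in H1 and 92.2 and 98.8 CPM in MEL1. The S6 libraries lay above the S0 libraries in both lines, and further above in MEL1.

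KLHL29, a little studied Kelch-type protein, rose at S6 from low counts, with 0.483, 0, 0.823 and 1.52 CPM at S0 and 9.59, 7.72, 7.47 and 4.03 CPM at S6 (log2 change 3.12 ± 0.88, adjusted p = 0.0101). KLHL14 was seen almost only in H1. It had 0, 0, 0.206 and 0 CPM at S0 and 6.70, 5.15, 0 and 0.451 CPM at S3. Its mean over the lines was at least 4.60-fold higher at S3 when S0 is set to 3 counts per library. That bound rests on H1, since the MEL1 libraries at S3 held 0 and 2 counts. FBXL7 was the 1 member called between S3 and S4, where 1.84% of all genes were called (1.49% higher and 0.351% lower). It stood at 28.8, 32.8, 3.5 and 6.99 CPM at S3 and 39.0, 53.9, 15.1 and 22.5 CPM at S4 (log2 change 1.10 ± 0.30, adjusted p = 0.0933), overlapping across lines, and the call was lost in 17 of 20 fits that left out samples.

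The list of pathway genes also held adaptors that were not called. FBXL5, the iron-sensing adaptor, changed by -0.92 ± 0.21 at S3 (adjusted p = 0.00279) and by -0.84 ± 0.21 at S6 (adjusted p = 0.00466), short of 2-fold. FBXO11 changed by -0.17 and 0.10, and KLHL12, an adaptor of CUL3 in COPII vesicle formation, by -0.29 and -0.61.

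The 75 RING ligases of the RNF and TRIM families gave 12 calls at S3, 5 of them higher, and 20 calls at S6, 13 of them higher. TRIM17, a RING ligase first described in testis and linked to neuronal cell death, gave the largest rise at S3 among called members at 1 CPM or more that moved the same way in 4 of 4 same-numbered pairs. The fitted rise of KLHL14 was larger but held in 3 of 4 pairs, with 6.70 and 5.15 CPM in H1 and 0 and 0.451 CPM in MEL1 at S3. TRIM17 stood at 0.483 and 0.227 CPM in H1 and 1.65 and 0.871 CPM in MEL1 at S0, and at 5.72, 6.80, 30.3 and 23.7 CPM at S3. S4 held 9.88, 5.21, 10.5 and 9.59 CPM and S6 2.31, 1.98, 3.36 and 3.63 CPM. Every S3, S4 and S6 library lay above every S0 library. It rose by 4.19 ± 0.45 at S3 (adjusted p = 4.3e-06), fell by 1.68 ± 0.40 from S4 to S6 (adjusted p = 0.0219) and was still 1.89 ± 0.48 above S0 at S6 (adjusted p = 0.00522).

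TRIM38, an interferon-inducible ligase of innate signalling, rose by 2.34 ± 0.44 at S3 (adjusted p = 0.000645) and by 2.22 ± 0.44 at S6 (adjusted p = 0.000868). H1 held 1.21 and 1.36 CPM at S0, 4.34 and 3.30 at S3, 1.23 and 2.33 at S4 and 4.08 and 4.85 at S6. MEL1 held 6.79 and 1.09 CPM at S0, 30.8 and 26.9 at S3, 10.1 and 11.1 at S4 and 23.2 and 21.8 at S6. Within each line the S3 and S6 libraries lay above the S0 libraries, but across lines the highest MEL1 S0 library exceeded the H1 libraries of S3 and S6.

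TRIM71, a stem cell ligase and RNA-binding protein that is a let-7 target, fell by 1.35 ± 0.23 at S3 (adjusted p = 0.00032) and by 1.49 ± 0.23 at S6 (adjusted p = 0.000126). Its levels were 176 and 186 CPM in H1 and 283 and 354 CPM in MEL1 at S0, against 114, 113, 79.8 and 83.7 CPM at S3 and 79.2, 91.7, 86.6 and 98.8 CPM at S6. The groups did not overlap. TRIM59 fell as well, from 44.0, 50.9, 51.2 and 32.9 CPM at S0 to 24.4, 30.5, 12.3 and 4.29 CPM at S3 (by 1.63 ± 0.41, adjusted p = 0.00503), and by 1.86 ± 0.41 at S6 (adjusted p = 0.002).

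TRIM24, a chromatin reader and ligase that targets p53, fell only in the step to S6 (log2 changes of -0.07 and -0.16 in the steps before it were not called). It stood at 251, 219, 224 and 179 CPM at S0, 197, 210, 199 and 220 CPM at S3 and 214, 175, 160 and 193 CPM at S4. At S6 it was at 70.3, 74.8, 50.4 and 44.8 CPM, below every library of the earlier stages. The fall was 1.64 ± 0.16 from S4 (adjusted p = 6.02e-05) and 1.87 ± 0.17 from S0 (adjusted p = 5.61e-07). TRIM24 was 1 of 6 members called between S4 and S6, 4 higher and 2 lower, where 5.18% of all genes were called (2.85% higher and 2.33% lower). Leaving out libraries gave 1 to 8 calls, with 1 without H1 replicate 1 or MEL1 replicate 2 and 2 without MEL1 replicate 1, and TRIM24 was called in all 20 of these fits. The 4 called higher were TRIM68, TRIM16, UBE2L6 and OTUD3, and each of TRIM68 and TRIM16 lost the call in the 3 fits without those replicates. TRIM68 had 0.494, 0.686, 0.420 and 0 CPM at S4 and 1.24, 2.65, 2.99 and 4.84 CPM at S6 (log2 change 2.52 ± 0.64, adjusted p = 0.0308). TRIM16 had 14.3, 19.6, 12.6 and 7.75 CPM at S4 and 24.5, 21.2, 43.7 and 47.2 CPM at S6 (1.29 ± 0.31, adjusted p = 0.024), and since TRIM16L is a near-identical copy, its counts may be shared with that gene.

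RNF19A (dorfin), a RING-between-RING ligase, rose at S6 by 2.02 ± 0.29 (adjusted p = 6.79e-05). It held 16.2, 15.5, 17.7 and 18.7 CPM at S0 and 37.8, 35.3, 132 and 108 CPM at S6, with no overlap and a larger rise in MEL1. RNF227 had at most 3 counts in any S0 library and 4.97, 2.43, 1.12 and 6.05 CPM at S6. Its mean over the lines was at least 5.44-fold higher at S6 when S0 is set to 3 counts per library. MEL1 replicate 1 held only 3 counts at S6. RNF182, a RING ligase, was called higher at S3 (1.88 ± 0.62, adjusted p = 0.0253), with 4.11, 2.05, 0.411 and 0 CPM at S0 and 7.49, 5.56, 1.0 and 6.09 CPM at S3. The stages overlapped across lines, and the single-line log2 changes were 1.09 in H1 and 3.92 in MEL1.

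The chromatin ligases RNF20 and RNF40, partners in ubiquitination of histone H2B, did not reach 2-fold: RNF40 changed by 0.76 ± 0.18 at S3 (adjusted p = 0.00346) and RNF20 by -0.03 ± 0.21. TRIM28 (KAP1), the corepressor of KRAB zinc fingers, changed by -0.61 ± 0.17 at S3 (adjusted p = 0.00849) and by -0.84 ± 0.17 at S6 (adjusted p = 0.000868), also short of 2-fold. TRIM33 changed by -0.14 and -0.47 and RNF111 (Arkadia), a ligase of the TGF-β pathway, by 0.09 and 0.33, neither called. The 3 UBE4 and UBR genes gave 0 calls at S3 and at S6.

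The 9 genes of the HECT-type families, which include the pseudogenes HERC2P2 and HERC2P9, gave 4 calls at S3, all higher. At S6 they gave 2 calls, UBE3B higher and UBE3C lower. The calls at S3 were HECTD4, UBE3B, HERC2P2 and HERC2P9, and the last pair are pseudogene copies of HERC2 whose reads may be shared with it. HECTD4 stood at 2.17, 1.82, 0.617 and 1.74 CPM at S0 and 5.12, 5.77, 6.26 and 7.22 CPM at S3, without overlap (1.91 ± 0.51, adjusted p = 0.00806). UBE3A, the Angelman syndrome ligase, changed by -0.42 at S3 and -0.79 at S6, HERC1 by -0.06 and 0.40 and HERC2 by 0.34 and 0.03, none of them called.

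The 39 deubiquitinases gave 10 calls at S3, 5 in each direction, and 11 at S6, 5 of them higher. Over all genes, 28.8% were called at S3 and 31.4% at S6. USP9X, an X-linked deubiquitinase with roles in stem cell and polarity pathways, gave the lowest adjusted p of any member at S3 and at S6. Its S0 levels were 360 and 355 CPM in H1 and 354 and 287 CPM in MEL1, a mean of 339 ± 34.5 CPM (SD, n = 4). All later libraries lay between 67.5 and 86.6 CPM, with stage means of 73.8 ± 6.00 (S3), 74.8 ± 5.02 (S4) and 81.4 ± 4.78 CPM (S6). The fall was 4.60-fold at S3 (2.20 ± 0.14 on the log2 scale, adjusted p = 1.28e-08) and 4.16-fold at S6, and the lines gave -2.18 (H1) and -2.22 (MEL1). From S3 on it changed by 0.02 and 0.12 per step.

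USP28, a deubiquitinase that stabilises MYC and acts in the DNA damage response, fell by 2.36 ± 0.37 at S3 (adjusted p = 0.000141) and by 1.73 ± 0.36 at S6 (adjusted p = 0.00129). It held 13.3 and 12.5 CPM in H1 and 25.1 and 27.2 CPM in MEL1 at S0, 3.15, 5.15, 4.00 and 2.93 CPM at S3, and 8.35, 5.95, 4.48 and 4.44 CPM at S6. No later library reached the lowest S0 library. USP40 moved the other way, from 3.62, 3.87, 1.23 and 0.653 CPM at S0 to 7.88, 10.5, 6.51 and 6.54 CPM at S3 (1.83 ± 0.40, adjusted p = 0.00208), and was still higher at S6 (1.57 ± 0.40, adjusted p = 0.00555).

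Among the other deubiquitinases of the list, USP7, which acts on MDM2 and p53, changed by -0.52 ± 0.21 at S3 and -0.68 ± 0.21 at S6. USP22, the SAGA subunit that removes ubiquitin from histone H2B, changed by 0.17 and -0.06, and USP1, which acts on FANCD2 and PCNA, by -0.75 and -0.71. OTUD4 changed by -0.95 ± 0.28 and -0.91 ± 0.28, and none of these was called. OTUD3 was called only from S4 to S6 (1.11 ± 0.36, adjusted p = 0.0839), with 5.18, 7.96, 5.88 and 5.90 CPM at S4 and 8.52, 6.62, 21.3 and 23.8 CPM at S6, overlapping in H1.

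**Figure D2:**
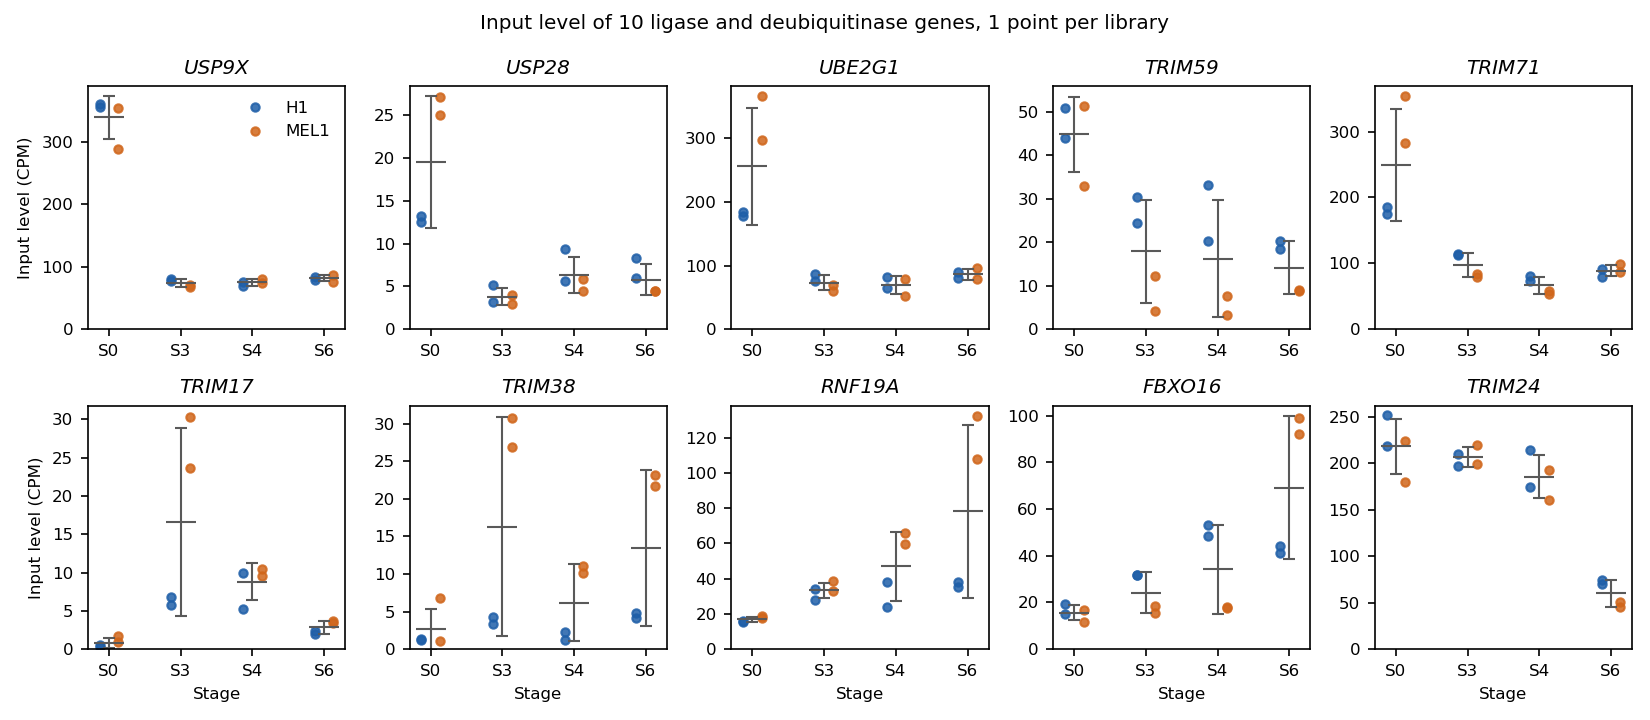
Input level (CPM, linear axes from 0) of 10 members in each of the 16 input libraries by stage. Dots are libraries (H1 blue, MEL1 orange) and the dash with its bar is the mean ± SD of 4. USP9X falls from 287 to 360 CPM at S0 to under 90 CPM at all later stages, TRIM24 falls only at S6, and TRIM17 rises from S0 to S3 and comes part of the way back at S6.

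Other genes of the pathway were taken from lists. Of 188 listed genes that are no members (E1 enzymes, cullin partners, other ligases, other deubiquitinases and the proteasome), 109 had counts, and 21 passed at S3 (10 higher, 11 lower) and 21 at S6 (5 higher, 16 lower), each against S0, or 19.3% at both stages where 28.8% and 31.4% of all genes were called. Of the 23 proteasome and VCP genes with counts, 0 were higher and 4 lower at S6 (PSMB6, PSMC3, PSMD1 and PSME4), or 17.4% lower where 13.8% of all genes were, with a median change of -0.64 against 0.03 over all genes. Of the 7 ubiquitin and E1 genes, UBA2 and SAE1, the SUMO-activating subunits, were lower at S6. Of the 22 cullin partners, DDB2, DTL and CAND1 were lower at S6.

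With stage accounted for, 23 members differed between the lines, 10 higher in MEL1 and 13 higher in H1, or 11.6% against 19.1% of all genes (8.85% higher in MEL1 and 10.2% higher in H1). TRIM genes, 32 of the 198 members, were 7 of the 10 and 4 of the 13, a share that was not tested. TRIM21, the cytosolic antibody receptor and ligase, gave the lowest adjusted p. Its H1 levels over the 4 stages were 3.87 to 9.06 CPM and its MEL1 levels 23.2 to 45.6 CPM, with no overlap (mean 6.31 ± 1.68 and 34.1 ± 8.88 CPM, SD over 8 libraries, log2 difference 2.40 ± 0.21, adjusted p = 1.22e-06).

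Other named members higher in MEL1 were TRIM6 by 1.92 ± 0.28, TRIM56 by 1.24 ± 0.13 and TRIM25, the ligase of the RNA sensor RIG-I, by 1.02 ± 0.20. TRIM56 stood at 32.9, 30.5, 54.7 and 52.7 CPM at S0 and 32, 36.2, 97.9 and 99.6 CPM at S6 in the order H1 then MEL1. UBE2Z, the E2 charged by UBA6, was higher by 1.01 ± 0.12. Higher in H1 were TRIM46, which organises the axon start (log2 difference -2.02 ± 0.34), FBXL7 (-1.63 ± 0.21), UBE2L6 (-1.63 ± 0.38), UBE2C (-1.52 ± 0.24) and TRIM45 (-1.40 ± 0.18). The hepatic, neural, endocrine and mesenchymal markers differed between the lines as well, by the sums given with the samples, and their part in these differences was not tested.

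The stage changes themselves differed between the lines. In a test of the difference between the line changes, 60 members (30.3%) changed differently at S3 against S0, where 34.0% of all genes did (16.5% toward MEL1 and 17.5% toward H1), and in 38 of the 60 (63.3%, all genes called 51.2%) the 2 lines gave opposite signs. At S6 against S0 there were 36 (18.2%, all genes 25.1%, of which 13.7% toward MEL1 and 11.4% toward H1), 24 of them with opposite signs (66.7%, all genes called 48.1%). A sign can rest on an estimate near 0, as for CUL7 at S3 (-0.04 in H1 and 2.01 in MEL1), so opposite signs do not mean a change in both lines. The shares were not tested against each other. Both counts moved with the libraries: leaving out libraries gave 33 to 64 at S3, with 33 without H1 replicate 2 and 40 without H1 replicate 1, and 19 to 52 at S6, with 19 and 21 without H1 replicates 1 and 2.

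CUL7 held 137 and 129 CPM at S0 and 126 and 132 CPM at S3 in H1, while MEL1 held 45.2 and 57.7 CPM at S0 and 220 and 193 CPM at S3. The difference between the line changes was 2.05 ± 0.23 (adjusted p = 8.43e-07). USP1 went the other way, with 93.7 and 90.9 CPM at S0 and 131 and 118 CPM at S3 in H1 against 140 and 104 CPM at S0 and 43.3 and 27.3 CPM at S3 in MEL1 (-2.23 ± 0.28, adjusted p = 2.73e-06). At S6 USP22 stood at 414 and 434 CPM in H1, above its 292 and 293 CPM at S0, and at 323 and 301 CPM in MEL1, below its 463 and 499 CPM at S0 (-1.16 ± 0.17, adjusted p = 2.42e-05). In each of the 3 the S0 libraries of the lines did not overlap.

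**Figure D3:**
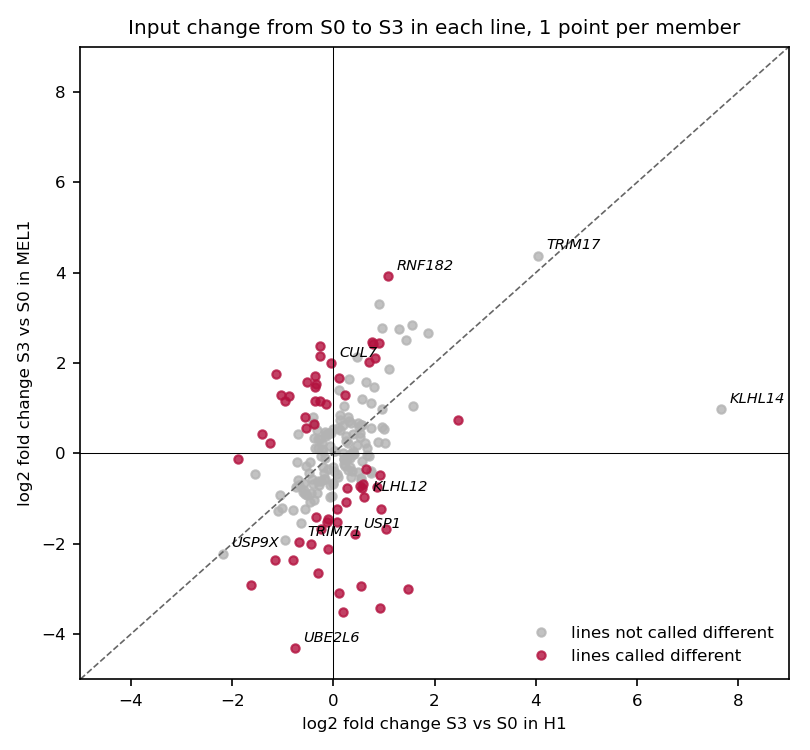
Log2 change of input level at S3 against S0 in H1 (x axis) and MEL1 (y axis), 1 point per member, with the dashed line marking equal change. The 60 red points are members whose change differed between the lines by the test of the difference, among them CUL7 and UBE2L6, and grey points did not pass it.

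The pull-down was first described per gene by the IP count over the input count (log2, normalised), averaged over the 16 preparations. This ratio is relative within the libraries and does not give the share of methylated molecules. The median member stood at 1.12 and the median gene of the table at 0.85. Of 197 members with levels given, 148 (75.1%, all genes 66.9%) had a mean above 0. In 88 members (44.7%, all genes 31.7%) the ratio was above 0 in every preparation, and in 24 (12.2%, all genes 16.3%) it was below 0 in every one. Every gene in the table carries a merged peak, so a ratio below 0 marks a gene with weak pull-down among such genes.

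The UBE3, FBXL, OTUD, KLHL and FBXO families had high medians, but their genes spread widely. They ranged from -0.07 to 3.27 in UBE3, 0.65 to 3.45 in FBXL and -1.09 to 3.46 in OTUD. KLHL genes lay at -1.70 to 3.62, FBXO genes at -1.33 to 2.73 and FBXW genes at -2.30 to 2.10. The family median was 3.18 for 3 UBE3 genes, 2.08 for 8 FBXL, 2.0 for 5 OTUD, 1.73 for 19 KLHL and 1.68 for 16 FBXO genes. It was 1.24 for RNF, 1.15 for TRIM, 0.56 for USP and 0.02 for UBE2 genes, and -1.92 for 4 FBXW and -1.57 for 2 UBE4 genes. UBE3A was at 2.20 to 5.06 and OTUD1 at 1.45 to 4.64 across the 16 preparations. TRIM28 lay at the other end, at -8.83 to -4.17, and RNF5 (a membrane-bound ligase of the endoplasmic reticulum) at -9.56 to -2.92. The ranges of the high and the low pair did not overlap.

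**Figure D4:**
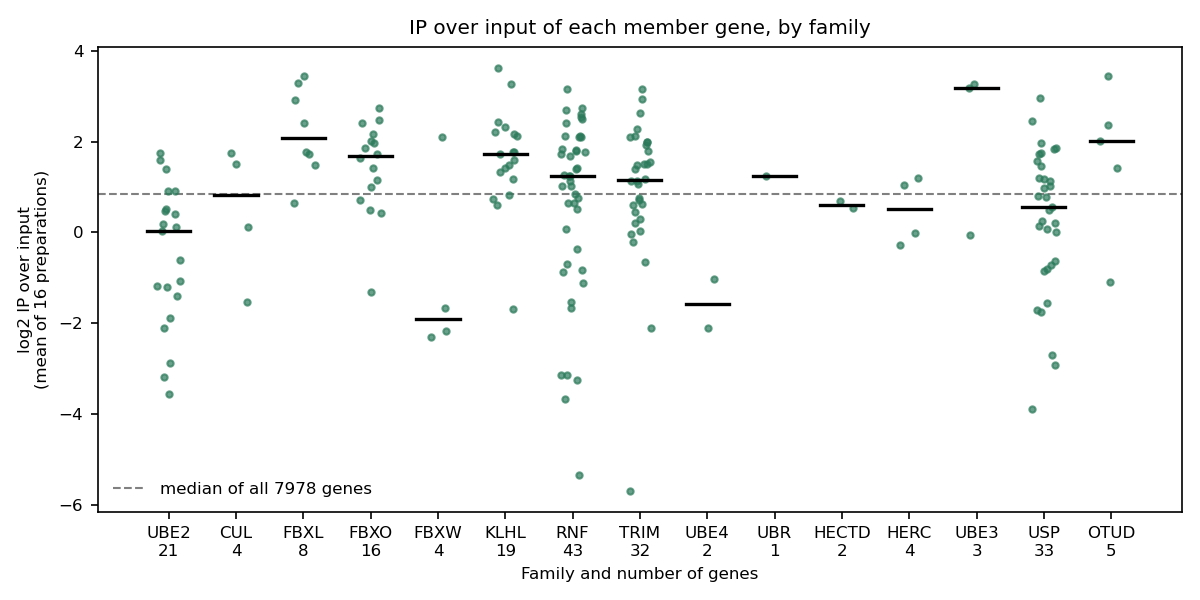
Mean log2 ratio of IP to input over 16 preparations for each member, by family. Each dot is 1 gene, the black bar is the family median and the dashed line is the median of all genes (0.85). FBXL, OTUD, KLHL and FBXO medians lie at 1.68 or above and the UBE2 median at 0.02.

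Tested peak by peak against the typical merged peak, member peaks called enriched numbered 204 of 599 for S0, 198 for S3, 162 for S4 and 204 for S6, and those called depleted 114, 146, 147 and 168. Of all peaks, 30.7%, 30.3%, 20.8% and 28.4% were called enriched and 24.9%, 31.0%, 32.1% and 34.6% depleted (55.6%, 61.3%, 52.9% and 63.0% either way) at the same stages. The split depends on the scaling: under relative log expression (RLE) scaling, 130 were enriched and 149 depleted at S0. Member peaks stood above all peaks in the median by 0.30, 0.35, 0.31 and 0.48 on the log2 scale. Enrichment at all 4 stages was seen in 114 member peaks of 85 genes (19.1% of 598 peaks, all peaks 14.9%) and depletion at all 4 in 82 peaks of 37 genes (13.7%, all peaks 19.4%). In 8 genes both kinds of peak occurred.

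Of the 5 most enriched of these peaks, the 2 with the most input reads lay in the Kelch-type genes KLHL36 and KLHL25, adaptors of CUL3 ligases. The peak at position 4301 of KLHL36, which is given by gene and position in the files, had 1152 input and 38923 IP reads over the 32 libraries. Its log2 ratio was 2.15 to 4.09 at S0, 3.09 to 4.02 at S3, 2.27 to 4.55 at S4 and 3.21 to 3.86 at S6, so that the stages overlapped. The peak at position 1320 of KLHL25 had 524 input and 18210 IP reads and means of 3.52 ± 0.34, 3.55 ± 0.60, 3.31 ± 1.20 and 3.56 ± 0.43 (SD, n = 4) at S0, S3, S4 and S6.

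The peaks of KLHL14 (position 1693), RNF40 (6001) and UBE3B (12101) ranked higher still, but rested on fewer input reads. RNF40 had 49 input reads at position 6001 over all 16 input libraries, with 123 and 282 IP reads in H1 and 32 and 4 in MEL1 at S0, and at S4 MEL1 alone gave -1.02. UBE3B had 65 input reads at position 12101 and 28 to 344 IP reads per library.

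Depleted peaks at every stage were led by RNF5 (position 1051), TRIM28 (3551 and 3901), UBE2G1 (3390) and UBE2C (551). TRIM28 had 41 to 208 input reads and 0 to 16 IP reads per library at position 3551. UBE2C had 10 to 161 input and 0 to 27 IP reads at position 551. RNF40 held both kinds of peak, depleted at position 4951 and enriched at 6001.

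**Figure D5:**
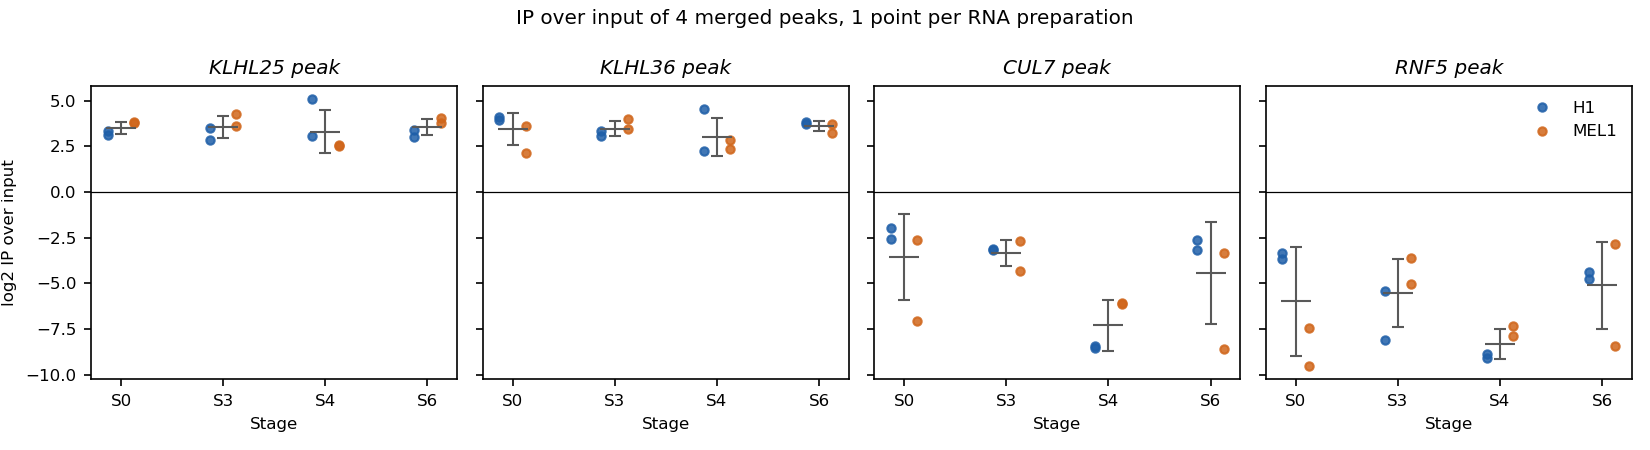
Log2 ratio of IP to input in single peaks of KLHL25, KLHL36, CUL7 and RNF5 in each of the 16 preparations by stage (H1 blue, MEL1 orange). The KLHL25 and KLHL36 peaks stay above 2 in every preparation, while the CUL7 and RNF5 peaks stay below 0 and, within H1, are lowest at S4, where no IP read was counted.

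Whether pull-down over input changed from stage to stage was tested in each of the 26104 peaks, with p adjusted over all of them. Between S0 and S3, edgeR called 0 member peaks, where 0.0498% of all peaks were called (0.0306% higher and 0.0192% lower). At an unadjusted p under 0.05 there were 38 (6.34%, all peaks 6.19%), and DESeq2 called 2. Fitted in single lines, the same step gave 32 calls in H1 and 58 in MEL1.

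Between S3 and S4, 30 member peaks in 30 genes were called, 0 higher and 30 lower, or 5.01% of 599 where 6.6% of all peaks were called (0.751% higher and 5.85% lower). The direction depends on the scaling. The median of all peaks was itself -0.36 in this fit and 0.12 under RLE scaling, where 6 member peaks were called, 2 higher and 4 lower. DESeq2 called 35, 18 higher and 17 lower. Without H1 replicate 1 edgeR called 0 and without H1 replicate 2 it called 1, while H1 alone gave 261 and MEL1 alone 77. Within each line the S4 IP libraries held the most member peaks without a read, at 9.85% to 14.5% in H1 and 19.2% to 21.5% in MEL1, against 0.334% and 9.02% to 11.7% at S3. With the IP libraries thinned to one depth, 5 member peaks were called.

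Of the 30 peaks, 18 were enriched at S3 or S4 and 12 were depleted and enriched at neither. CUL7 at position 79 had 23, 21, 5 and 22 IP reads at S3 and 0 in all 4 libraries at S4, while its input reads were 65, 54, 30 and 44 at S3 and 63, 77, 19 and 23 at S4. With S4 set to 3 IP reads per library, its ratio was at least 2.45-fold lower at S4 (adjusted p = 0.0222). RNF5 at position 1051, with 7, 1, 9 and 18 IP reads at S3 and 0 at S4, was at least 1.35-fold lower (adjusted p = 0.0789). RNF40 at position 4951 had 10 and 34 IP reads in H1 and 0 and 0 in MEL1 at S3, and 0 in all 4 at S4, at least 1.19-fold lower (adjusted p = 0.0513), but MEL1 alone gave 0.26 on the log2 scale. OTUD5, a deubiquitinase with a role in interferon signalling, had 16, 17, 18 and 19 IP reads at position 3143 at S3 and 0, 2, 0 and 0 at S4, against 69 input reads at S4 (adjusted p = 0.0294).

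From S4 to S6, 46 member peaks in 39 genes were called, 32 higher and 14 lower, or 7.68% where 7.58% of all peaks were called (5.31% higher and 2.26% lower). The split again moved with the scaling: RLE scaling gave 13 higher and 19 lower, and DESeq2 25 higher and 38 lower. Without H1 replicate 1 edgeR called 1 and without H1 replicate 2 it called 2, while H1 alone gave 223 and MEL1 alone 65. CUL7 at position 79 went back to 16, 28, 0 and 7 IP reads at S6, and RNF5 at position 1051 to 9, 12, 26 and 0. Lower at S6 were RNF11 (1301), TRIM24 (3901), FBXW2 (9414) and USP32 (1306), but RNF11 and USP32 gave the opposite sign in H1 alone. TRIM24 had 0, 20, 32 and 24 IP reads at position 3901 at S4 and 1, 0, 0 and 0 at S6, where its input reads had also gone from 39, 47, 5 and 5 to 19, 8, 4 and 5.

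Between S0 and S6, 10 member peaks in 9 genes were called, all lower, or 1.67% where 1.26% of all peaks were called (0.0766% higher and 1.18% lower). With the replicate block that pairs input and IP of one RNA preparation 1 was called, and RLE scaling gave 2. The other fits ranged more widely: DESeq2 called 36, H1 alone 75 and MEL1 alone 66, scaling within input and within IP gave 1, thinning the IP libraries to one depth gave 0, and leaving out libraries gave 0 to 16, with 0 when any 1 of the 4 line replicates was left out. Of the 10 peaks, 9 were depleted against the typical peak and enriched at neither stage. FBXW2, an F-box adaptor, had 9, 11, 60 and 94 IP reads at position 9414 at S0 and 0 in all 4 libraries at S6, against 11, 11, 9 and 19 input reads at S0 and 10, 13, 7 and 4 at S6, at least 9.24-fold lower with S6 set to 3 IP reads per library (adjusted p = 0.0625). UBE2G1 at position 3390 had 46, 28, 286 and 151 IP reads at S0 and 2, 1, 1 and 0 at S6, while its input reads were 170, 151, 488 and 317 at S0 and 107, 107, 66 and 53 at S6 (adjusted p = 0.0429). The input level of UBE2G1 fell over the same interval. FBXL19 (4151) and UBE2Q1 (2012) were the other named peaks called lower at S6.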

How the data were processed

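Input and m6A IP libraries of both lines at 4 stages were analysed. The authors used MeRIPtools to count reads in 50-bp bins per gene (Ensembl version 94), find peaks and merge them. They deposited the raw count of each library in each merged peak. The deposited counts are not normalised, and the aligner and genome build are not given in the sources used here. Input counts of a gene were summed over its merged peaks. Features with a total of at least 10 were tested with edgeR 4.0.16 (R 4.3.3, limma 3.58.1) after TMM scaling, with stage and cell line for input, the line by stage interaction for line differences, and stage by library type with line for m6A. A call needed a 2-fold change or more and an adjusted p (Benjamini-Hochberg) under 0.1. The SE is the log2 change divided by the square root of F. Ratios of IP to input used a prior count of 0.5. DESeq2 1.42.0, used by the study, was an alternative, as were other scalings and filters, single lines, a replicate block and leaving out libraries. The scripts were tested on simulated data.

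Members, gene lists and tests were chosen with earlier results of these data known. Genes were named from a list of 36 pathway genes, of which 25 had counts here and the rest were not analysed here, plus the up to 5 largest rises and falls per input comparison among called members averaging 1 CPM or more that moved the same way in 4 of 4 same-numbered pairs. Between lines the up to 5 on each side without overlap at any stage were named, per m6A comparison the up to 4 peaks on each side with at least 10 input reads per stage, and of the peaks called at all 4 stages the 5 most enriched and 5 most depleted. Uncertain members with shared reads (HERC2P2, HERC2P9, RNF216P1, RNF103-CHMP3, TRIM39-RPP21, UBE2F-SCLY, TRIM16 and TRIM16L) were kept. The input values of KLHL14 and UBE3B, and UBE3C, OTUD3, OTUD1, HERC2P2 and HERC2P9, fall outside this rule and were named after their values were seen. Input and IP of 1 preparation are paired by the clone label, and the correlation of their replicate deviations was -0.15 to 0.05 over 8 line-stage pairs. A floor of 3 counts per library was used for genes or peaks at 0, and intervals and floors cover counting error only. Replicates differed beyond sampling noise in all pairs (chi-square per degree of freedom 1.67 to 35.0). The values of 1 listed gene are not reported here. Sequences came from RefSeq.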

Additional observations from a re-analysis of the deposited data

Results flagged for a closer look

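For the listed pathway genes and the members named for the same step, a model with a mean for every line and stage showed a change against S0 that was not the same in both lines, which is why these results are listed. Values are the MEL1 change minus the H1 change on the log2 scale, with 2 replicates per line and stage.

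At S3, RNF182 differed by 2.83 (H1 1.09, MEL1 3.92) and CUL7 by 2.05 (H1 -0.04, MEL1 2.01), both toward MEL1. RNF182 rested on low counts in MEL1 at S0. UBE2L6 differed by -3.55, USP1 by -2.23, KLHL12 by -1.59, TRIM59 by -1.57, CUL5 by -1.31, TRIM71 by -1.29, USP28 by -1.28, UBE2G1 by -1.21 and OTUD4 by -1.07. UBE2L6, UBE2G1, TRIM59, TRIM71, USP28 and OTUD4 had a negative estimate in both lines, larger in MEL1, while CUL5, KLHL12 and USP1 had a positive estimate in H1 and a negative one in MEL1.

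At S6, CUL7 differed by 1.67, RNF19A by 1.51 and FBXO16 by 1.45, with a positive estimate in both lines and the larger in MEL1. KLHL12 differed by -1.86, USP28 by -1.70, CUL5 by -1.51 and USP22 by -1.16, and for KLHL12 and USP22 the estimates of the lines had opposite signs. The adjusted p was 8.43e-07 for CUL7 and 0.0731 for USP28 at S3, the lowest and the highest of the differences given here. The hepatic markers and, at S3, the proliferation markers also differed between the lines, at 447 CPM in H1 and 30525 CPM in MEL1 for the former and 1601 and 584 CPM for the latter at S3. The neural markers were at 2484 and 39.8 CPM and the endocrine markers at 1901 and 410 CPM in H1 and MEL1 at S3, the undifferentiated-cell markers at 3543 and 1744 CPM and the posterior foregut markers at 1026 and 2946 CPM. At S6 the sums in H1 and MEL1 were 88.8 and 2928 CPM for the hepatic, 1900 and 491 CPM for the neural, 2634 and 5096 CPM for the endocrine and 26.0 and 147 CPM for the pancreatic progenitor markers, so that the endocrine sum was higher in H1 at S3 and in MEL1 at S6. The part of these markers in these differences was not tested.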

How the results depend on the processing

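Leaving out 1 library or replicate at a time gave, in number of called members, 27 to 41 for S3 over S0, 0 to 2 for S4 over S3, 1 to 8 for S6 over S4 (1 without H1 replicate 1 or MEL1 replicate 2, 2 without MEL1 replicate 1), 41 to 52 for S6 over S0 and 20 to 28 between the lines, for line differences 33 to 64 at S3 (33 without H1 replicate 2) and 19 to 52 at S6 (19 and 21 without H1 replicates 1 and 2), and in called peaks 0 to 0, 0 to 48, 1 to 62 and 0 to 16 for m6A in the same order of steps (S3 over S0, S4 over S3, S6 over S4, S6 over S0), and 261 to 328, 301 to 351, 250 to 315 and 330 to 378 for enrichment at S0, S3, S4 and S6. H1 alone called 22, 9 and 14 input changes in the first 3 of these steps, and MEL1 alone 67, 12 and 23. S4 against S3 went from 1 to 4 with DESeq2 and to 0 under upper-quartile scaling, without the cell line or without mitochondrial genes, and S6 against S4 from 6 to 10 with DESeq2 and to 3 without the cell line. The m6A counts of the 4 steps were 32, 261, 223 and 75 in H1 alone, and in MEL1 alone 58, 77 and 66 for the first, second and last. DESeq2 called 2 at S3 against S0 and 36 at S6 against S0. RLE scaling gave 6 for S4 over S3 and 2 for S6 over S0, scaling within input and within IP 9 and 1, and thinning the IP libraries to one depth 5 and 0. The cause of these shifts was not tested. Named peaks reversed in single lines: RNF40 (4951) at S4 against S3 was 0.26 in MEL1 alone, RNF11 (1301) and USP32 (1306) at S6 against S4 were 2.22 and 1.06 in H1 alone, and RNF40 (6001) at S4 was -1.02 in MEL1 alone. Of the alternative values of named genes and peaks, 5233 kept their side and direction, 269 lost and 63 gained the call, and 4 reversed.

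The labels give input libraries of different stages only a common number. Their deviations correlated at -0.01 to 0.06 across stages over 6 pairs in H1 and at 0.06 to 0.12 over 6 in MEL1, where the 3 pairs with S6 exceeded 0.1. With that number as a replicate block the input call at S4 against S3 (FBXL7) went from 1 to 0, the call of UBE2L6 at S6 against S4 was lost, and with the RNA preparation as a replicate block m6A calls at S6 against S0 went from 10 to 1. The block moved no other count of calls by more than 1.5 times. A block was not run between the lines, since it contains the line.

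Depth limits peaks at few or 0 IP reads, most of all in the MEL1 S4 libraries, and genes counted only in merged peaks.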
